A study of Arabidopsis thaliana with 12 samples.

Results

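The genes described here encode the nuclear-encoded light-harvesting proteins of both photosystems (LHCA and LHCB), nuclear-encoded subunits of photosystem I (PSA) and photosystem II (PSB), and the small subunit of Rubisco (RBCS) of Arabidopsis. The rule took genes of these families by identifier and used no measured value, although the families were picked with earlier results of these data known, and all 46 were found among the 26093 genes of the deposited expression table, as 6 LHCA, 14 LHCB, 12 PSA, 10 PSB and 4 RBCS genes. Light-harvesting proteins bind chlorophyll and pass absorbed energy to the photosystem cores, which drive electron transport from water to ferredoxin, and Rubisco then fixes carbon dioxide in the Calvin cycle. The proteins are made in the cytosol and imported into the chloroplast, and their messenger RNAs are among the most abundant in green tissue. The transcription of many of them is known to respond to light, to the GLK transcription factors and to signals from the plastid.

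Messenger RNA was measured in whole seedlings grown under continuous light in plant nutrient medium. There were 4 genotypes with 3 libraries each, biological replicates per the series design: the wild type Col-0, the single mutants atg2-4 and lon2-8, and the double mutant lon2-8 atg2-4, all in the Col-0 ecotype, with 1 allele of each gene. ATG2 acts in the growth of autophagosomes, and LON2 is a protease of the peroxisome matrix. The age is 6 days in the series design and 8 days in the growth protocol, and title and genotype tag name opposite single mutants for 6 samples, so libraries were grouped by the genotype named in their table column. No transgene or added agent is named.

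LON2 (AT5G47040) stood at 25.9 ± 1.62 FPKM (Col-0), 22.3 ± 0.840 (atg2-4), 11.6 ± 0.472 (lon2-8) and 4.78 ± 0.502 (double mutant) (mean ± SD, n = 3 throughout). ATG2 (AT3G19190) stood at 7.71 ± 0.131, 6.31 ± 0.340, 7.58 ± 0.510 and 6.59 ± 0.427 FPKM in the same order. FPKM is fragments per kilobase of transcript corrected for library size, so levels of different genes are compared per length. The libraries held 14481170 to 18690658 fragments, and each gene described here was read from 141 to 220614 fragments per library. In RNA from whole seedlings, fewer green cells and less RNA per green cell cannot be told apart.

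In Col-0, the 46 genes supplied 11.3 to 11.6% of all FPKM, and their median level was 776.5 FPKM against 4.85 FPKM over all genes. LHCB1.3 (AT1G29930), which encodes the main protein of the photosystem II antenna, was the most abundant transcript of the table at 8533, 8751 and 8591 FPKM. RBCS1A (AT1G67090) ranked 3 among all genes with 7072, 7184 and 7215 FPKM. PSBR (AT1G79040), a photosystem II subunit, led the PSB genes at 2782 to 2809 FPKM, PSAG (AT1G55670), which helps to attach the photosystem I antenna, led the PSA genes at 2098 to 2177 FPKM, and LHCA2 (AT3G61470) led the LHCA genes at 1034 to 1059 FPKM. In Col-0, 43 of the 46 stood at 100 FPKM or more and 16 at 1000 or more. The low end was formed by LHCA5 (AT1G45474) and LHCA6 (AT1G19150), whose proteins link photosystem I to the chloroplast NDH complex, at 51.9 and 47.9 FPKM, and by LHCB4.3 (AT2G40100), a variant of the minor antenna protein CP29, at 6.49 FPKM. Neighbours in this order often overlapped between libraries, as PSBR did with RBCS3B, PSAG with LHCB1.1, and PSAF with PSAD1.

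Summed over the 46 genes, the level was 55833, 56865 and 56766 FPKM (Col-0), 48253, 50298 and 47063 (atg2-4), 53512, 53454 and 56355 (lon2-8) and 48880, 49564 and 50802 (double mutant). All libraries of atg2-4 and of the double mutant lay below all of Col-0, whereas library 3 of lon2-8 lay within the Col-0 range. The groups of genes did not move by the same amount. In atg2-4 the PSA sum was 76.7% of its Col-0 level, the LHCB sum 86.4%, the PSB sum 86.8%, the LHCA sum 89.3% and the RBCS sum 90.8%. In lon2-8 the sums were 96.6% for PSA, 90.1% for LHCB, 99.2% for PSB, 95.0% for LHCA and 105% for RBCS. In the double mutant they were 78.4% for PSA, 83.7% for LHCB, 92.2% for PSB, 90.3% for LHCA and 99.2% for RBCS. These sums were not tested against each other.

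**Figure D1:**
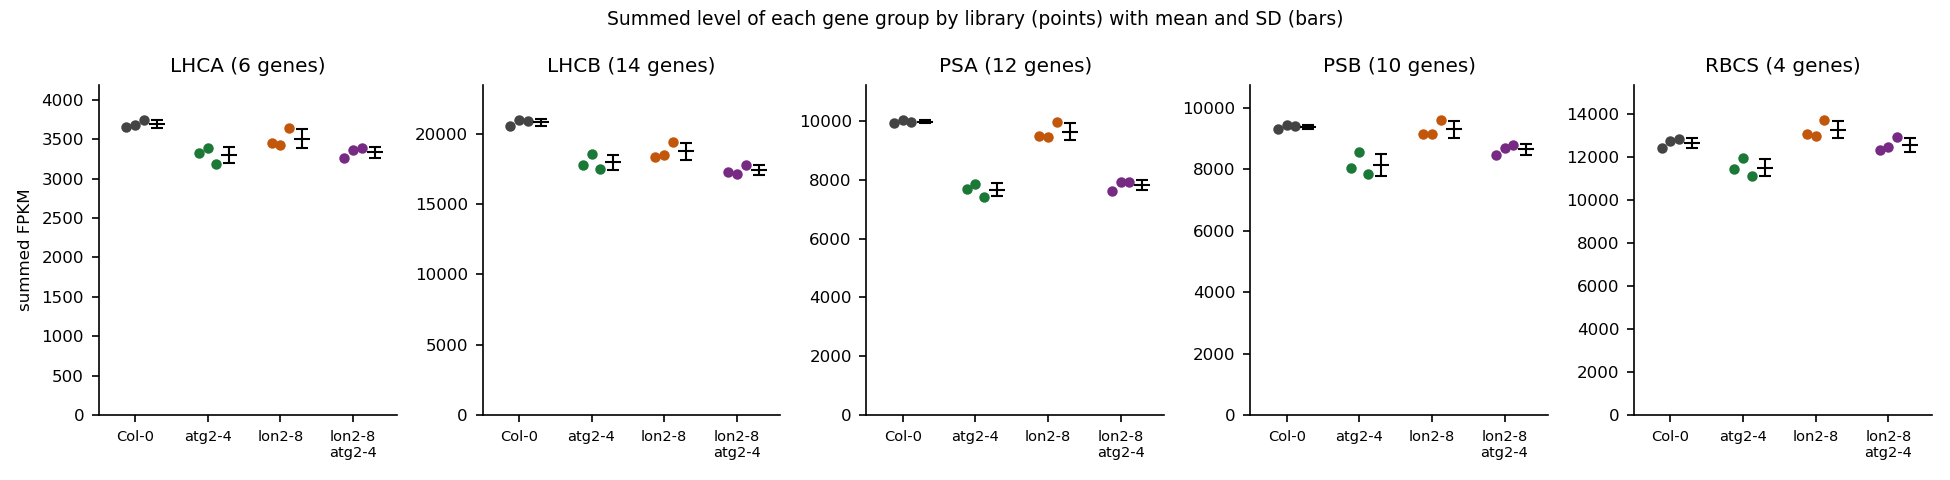
Summed FPKM of the LHCA, LHCB, PSA, PSB and RBCS genes in each library (points, 3 per genotype), with the mean and SD as bars; each vertical axis starts at 0. The PSA sums of atg2-4 (7415 to 7861 FPKM) and of the double mutant (7630 to 7916) lie below those of Col-0 (9942 to 10033) and lon2-8 (9453 to 9974), while the RBCS sums of the double mutant (12294 to 12920) overlap those of Col-0 (12393 to 12802).

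In atg2-4, transcripts of nearly all parts of the light reactions were lower than in Col-0, most of all those of photosystem I and of single antenna genes. By limma on log2(FPKM + 1), with p adjusted over 20662 tested genes and a threshold of 0.05, 38 of the 46 genes fell and 0 rose (0 higher also at an unadjusted p under 0.05), where 27.2% of all tested genes were called lower and 21.3% higher. The median log2 difference of the 46 genes was -0.27, against -0.05 over all tested genes. The differences were small for each gene, and abundant transcripts were measured precisely, with a median standard error of 0.036 for the 46 genes against 0.072 for all tested genes. The sum of 15 root marker genes stood at 1705 to 1818 FPKM in Col-0 and 1206 to 1277 in atg2-4. Of the 15, 5 were called lower, 2 were called higher and 8 were not called, with a median log2 difference of -0.08. The glucosidase PYK10 made up most of the sum, and the part of root RNA in these results was not tested.

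Among the photosystem I antenna genes, 5 of 6 fell in atg2-4. LHCA6 stood at 45.6, 49.4 and 48.7 FPKM (Col-0) and 38.9, 38.0 and 37.6 FPKM (atg2-4), with no overlap and a log2 difference of -0.32 ± 0.038 (± SE throughout; adjusted p = 1.63e-05). LHCA2, LHCA3 (AT1G61520), LHCA4 (AT3G47470) and LHCA5 fell by less. LHCA1 (AT3G54890) was not called, at 856, 858 and 866 FPKM (Col-0) and 868, 850 and 833 FPKM (atg2-4), which overlap.

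Among the photosystem II antenna genes, 11 of 14 fell. LHCB2.3 (AT3G27690), one of the LHCB2 genes whose protein is a mobile part of the antenna, stood at 214, 212 and 206 FPKM (Col-0) and 130, 128 and 124 FPKM (atg2-4). These groups lay far apart, and the log2 difference of -0.72 ± 0.044 (adjusted p = 2.47e-08) was the largest of the 46 in this comparison. LHCB2.1 (AT2G05100), a close paralog, did not follow: it stood at 439, 452 and 474 FPKM (Col-0) and 458, 502 and 482 FPKM (atg2-4), with overlap and a log2 difference of 0.08 ± 0.038 (adjusted p = 0.106). LHCB3 (AT5G54270), whose protein takes part in the major trimers, fell by 0.48 on the log2 scale. All genes of the monomeric antenna proteins CP29, CP26 and CP24 fell except LHCB4.3, with LHCB4.2 (AT3G08940) at -0.37, LHCB6 (AT1G15820) at -0.34, and LHCB4.1 (AT5G01530) and LHCB5 (AT4G10340) both at -0.25.

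All 12 photosystem I subunit genes fell in atg2-4, with log2 differences from -0.63 to -0.19. The largest differences belonged to genes for subunits on the lumenal side, where plastocyanin delivers electrons. PSAN (AT5G64040) stood at 349, 367 and 380 FPKM (Col-0) and 228, 243 and 235 FPKM (atg2-4), a log2 difference of -0.63 ± 0.041 (adjusted p = 4.93e-08). PSAF (AT1G31330), the docking subunit for plastocyanin, stood at 1399, 1355 and 1329 FPKM (Col-0) and 904, 934 and 860 FPKM (atg2-4), a log2 difference of -0.60 ± 0.037 (adjusted p = 2.93e-08). In both genes the highest atg2-4 library lay below the lowest Col-0 library. PSAD2 (AT1G03130), for the stromal subunit that binds ferredoxin, fell by 0.45, and its paralog PSAD1 (AT4G02770) fell by 0.34. PSAL (AT4G12800), for a subunit near which mobile antenna proteins bind, showed the smallest fall, -0.19 ± 0.040, from 786, 796 and 804 FPKM to 689, 732 and 671.

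Of the 10 photosystem II subunit genes, 7 fell, and these include all 5 for the extrinsic proteins that shield the oxygen-evolving complex. PSBQ2 (AT4G05180) stood at 229, 235 and 233 FPKM (Col-0) and 167, 167 and 166 FPKM (atg2-4), a log2 difference of -0.48 ± 0.034 (adjusted p = 9.95e-08). PSBO1 (AT5G66570), PSBO2 (AT3G50820), PSBP1 (AT1G06680) and PSBQ1 (AT4G21280) fell by 0.28 to 0.32. Of the small membrane or lumenal subunits, PSBY and PSBTN fell by 0.30 and 0.36, and PSBR, PSBW and PSBX were not called, with log2 differences of -0.05 ± 0.040, -0.09 ± 0.039 and -0.11 ± 0.043.

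Of the 4 Rubisco small subunit genes, 3 fell. RBCS2B (AT5G38420) stood at 2180, 2304 and 2284 FPKM (Col-0) and 1603, 1653 and 1580 FPKM (atg2-4), a log2 difference of -0.48 ± 0.035 (adjusted p = 1.19e-07). RBCS3B (AT5G38410) fell by 0.17 and RBCS1B (AT5G38430) by 0.16. RBCS1A, the most abundant, was not called, at 6963, 7310 and 6748 FPKM in atg2-4, which overlaps its Col-0 libraries (-0.03 ± 0.038).

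**Figure D2:**
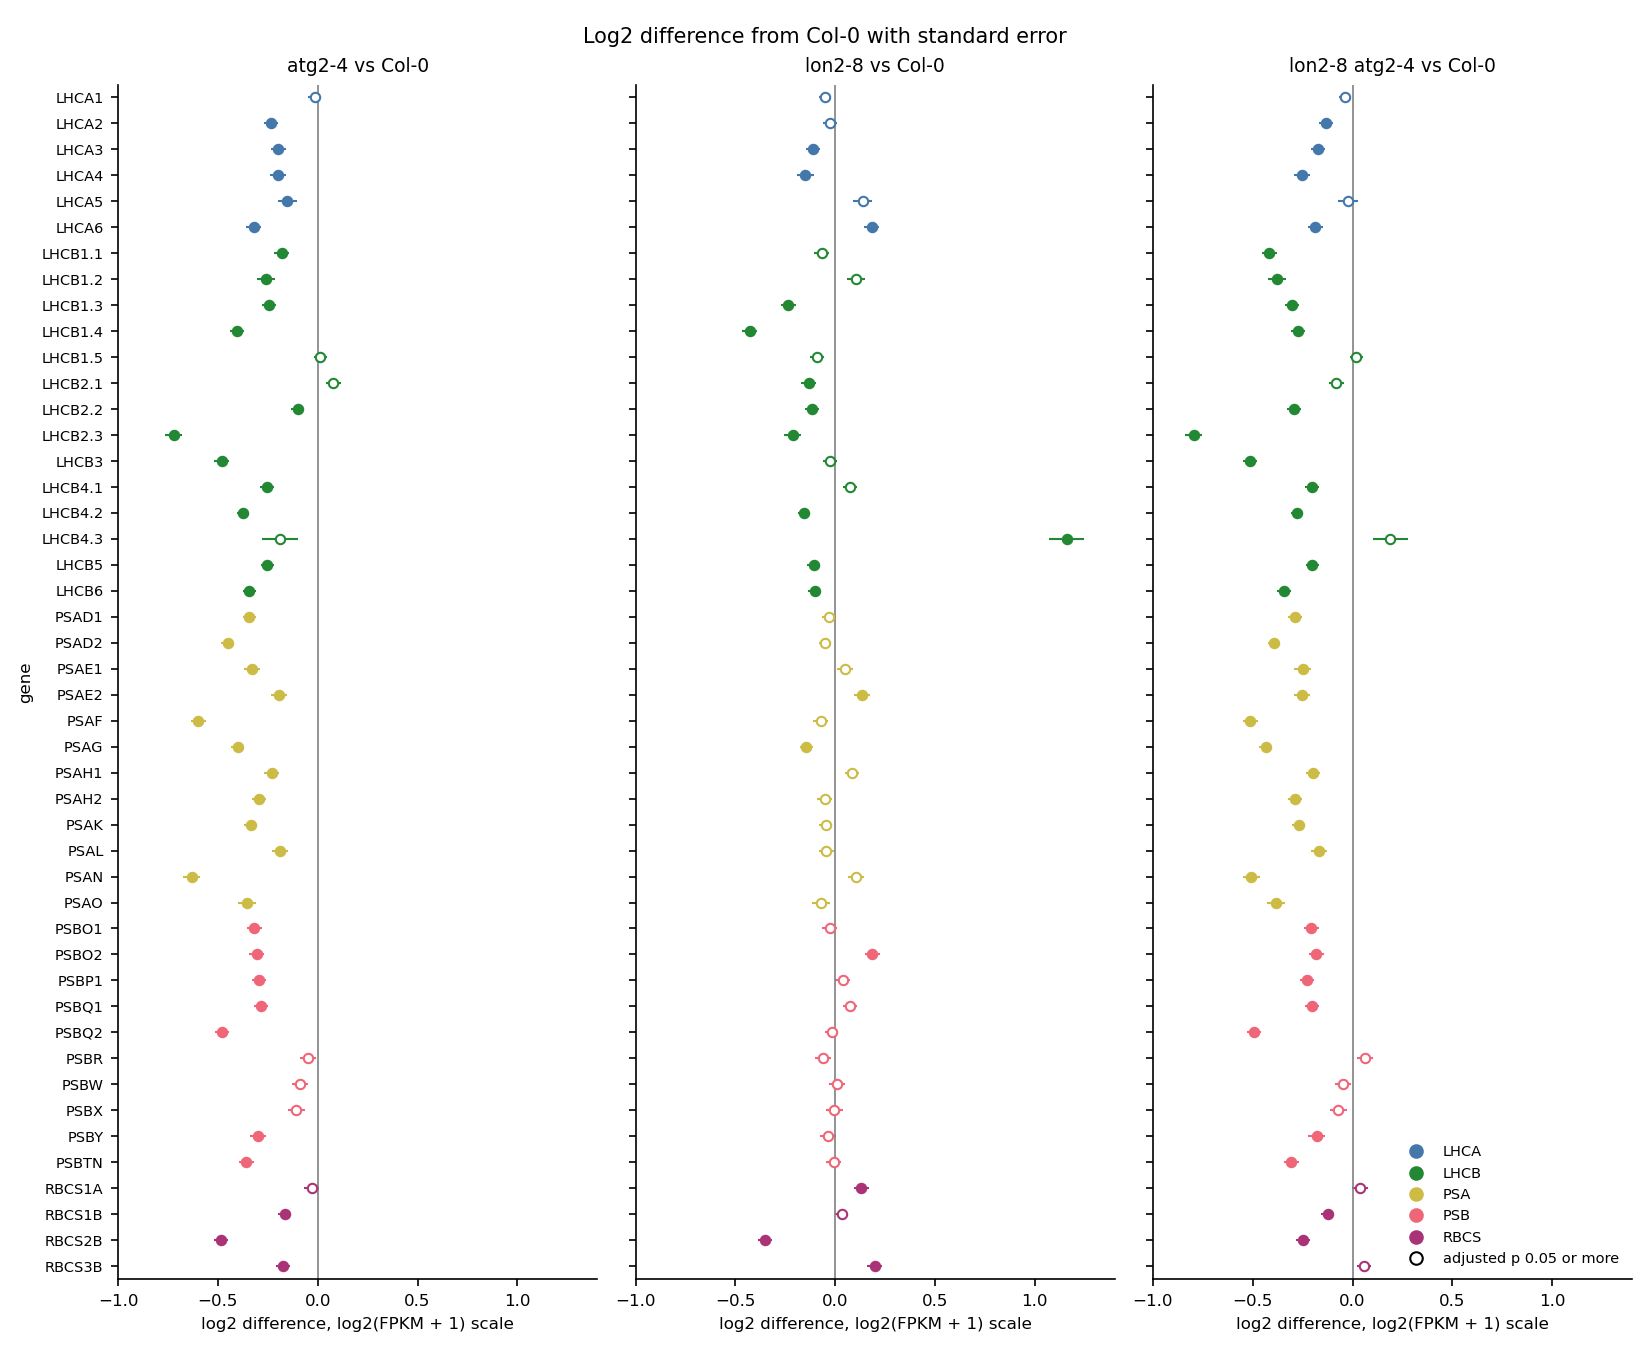
Log2 difference from Col-0, on the log2(FPKM + 1) scale, of each of the 46 genes in atg2-4, lon2-8 and the double mutant, with bars for the standard error; filled points passed limma at an adjusted p under 0.05. All 12 PSA genes are filled and left of 0 in atg2-4 and in the double mutant, and LHCB4.3 is at 1.16 in lon2-8; the panels share the Col-0 libraries.

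In lon2-8, the same genes showed a mixed and smaller picture. Of the 14 LHCB genes, 8 were called lower, and some of these calls were lost under alternative processing. Photosystem transcripts were mostly not called, and a few transcripts were higher. There were 12 genes that fell and 6 that rose, 26.1% and 13.0% of the 46, where 14.1% of all tested genes were called lower and 9.06% higher. The median log2 difference was -0.03, against -0.04 over all tested genes. With the library medians centred, which shifted the median of all genes from -0.04 to 0.01, 5 fell and 12 rose, so the balance of directions in lon2-8 depends on the scaling. The shares over all tested genes given here are without centring and do not apply to those counts. The 12 that fell became 7 without library 2 of Col-0 and 6 without library 3 of Col-0 or library 1 or 2 of lon2-8. The root marker sum was 2447 to 2757 FPKM in lon2-8, above all Col-0 libraries. Of the 15 markers, 7 were higher and 1 lower, with a median log2 difference of 0.20, and the part of root RNA was not tested.

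The LHCB genes held 8 of the 12 that fell in lon2-8. LHCB1.4 (AT2G34430), a gene for the main antenna protein, stood at 1228, 1224 and 1256 FPKM (Col-0) and 896, 890 and 970 FPKM (lon2-8), a log2 difference of -0.43 ± 0.037 (adjusted p = 3.16e-06). LHCB1.3 stood at 7164, 7278 and 7556 FPKM in lon2-8, below all Col-0 libraries, a log2 difference of -0.23 ± 0.036 (adjusted p = 0.000451). LHCB2.3 fell by 0.21 and LHCB4.2 by 0.15. The calls of LHCB1.3, LHCB1.4, LHCB2.3, LHCB4.2 and RBCS2B were kept under each alternative processing that gave a value. LHCB2.1, LHCB2.2, LHCB5, LHCB6, LHCA3, LHCA4 and PSAG were called lower as well, with log2 differences from -0.15 to -0.10, and each lost its call under at least 1 alternative.

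LHCB4.3 stood apart, and in the other direction. It stood at 6.40, 6.64 and 6.42 FPKM (Col-0) and 15.8, 14.5 and 16.9 FPKM (lon2-8), so that all lon2-8 libraries lay above all others of the study. The log2 difference was 1.16 ± 0.088 (adjusted p = 1.11e-06). It is the least abundant of the 46 genes, and with the sum over LHCB4.1, LHCB4.2 and LHCB4.3 its share was 0.454 ± 0.00829% in Col-0 and 1.09 ± 0.0601% in lon2-8.

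The other genes that rose in lon2-8 were LHCA6, PSAE2, PSBO2, RBCS1A and RBCS3B. LHCA6 stood at 55.6, 52.4 and 55.5 FPKM (0.18 ± 0.038, adjusted p = 0.00411), PSBO2 rose from 366, 376 and 379 to 421, 422 and 434 (0.19 ± 0.037, adjusted p = 0.00324), and RBCS3B rose from 2660, 2766 and 2804 to 3087, 3093 and 3258 (0.20 ± 0.036, adjusted p = 0.00164). In these genes all lon2-8 libraries lay above all Col-0 libraries. RBCS1A at 0.13 ± 0.038 (adjusted p = 0.0251) and PSAE2 (AT2G20260), for a stromal subunit near ferredoxin, at 0.14 ± 0.041 (adjusted p = 0.0303) lost their calls under 6 and 5 of the alternatives. RBCS2B went the other way in the same libraries, at 1750, 1764 and 1791 FPKM, a log2 difference of -0.35 ± 0.035 (adjusted p = 1.15e-05).

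The double mutant was lower than Col-0 across the photosystem and antenna genes. There were 36 genes that fell and 0 that rose (by limma 0 higher also at an unadjusted p under 0.05), where 30.1% of all tested genes were called lower and 22% higher, and the median log2 difference was -0.24 against -0.05 over all tested genes. All 12 PSA, 11 of 14 LHCB, 7 of 10 PSB, 4 of 6 LHCA and 2 of 4 RBCS genes were among the 36. The root marker sum was 1190 to 1257 FPKM, below all Col-0 libraries, with 7 of the 15 markers lower and 0 higher by limma (1 higher at an unadjusted p under 0.05). Their median log2 difference was -0.24, and the part of root RNA was not tested. The sum of 6 shoot epidermis and guard cell markers was 244 to 263 FPKM (Col-0), 217 to 228 (atg2-4), 220 to 252 (lon2-8) and 189 to 199 (double mutant). Of these markers 3 were lower in atg2-4, 1 in lon2-8 and 3 between the double mutant and Col-0, and their part was not tested either.

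LHCB2.3 again showed the largest fall, at 111, 125 and 127 FPKM in the double mutant, a log2 difference of -0.80 ± 0.044 (adjusted p = 8.34e-09). PSAF stood at 925, 978 and 962 FPKM (-0.51 ± 0.037) and PSBQ2 at 162, 165 and 168 (-0.49 ± 0.034), both below all their Col-0 libraries. LHCB1.1 (AT1G29920), which had a log2 difference of -0.18 in atg2-4 and -0.07 in lon2-8, stood at 1562, 1613 and 1616 FPKM against 2087, 2162 and 2144 in Col-0, a log2 difference of -0.42 ± 0.036 (adjusted p = 7.40e-07). LHCA4 fell by 0.25, the largest fall among the LHCA genes. The genes not called were LHCA1, LHCA5, LHCB1.5, LHCB2.1, LHCB4.3, PSBR, PSBW, PSBX, RBCS1A and RBCS3B, the last with 2821, 2801 and 2950 FPKM against 2660, 2766 and 2804 in Col-0.

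Within the lon2-8 background, the atg2-4 allele was accompanied by much the same set of lower transcripts. Between the double mutant and lon2-8, 35 of the 46 genes fell and 4 rose, where 24.6% of all tested genes were called lower and 25.3% higher, and the median log2 difference was -0.23 against -0.01 over all tested genes. This comparison shares no library with atg2-4 against Col-0. In both, 34 genes were lower, 73.9% of the 46, where 16.9% of all tested genes were lower in both. The 34 are 89.5% of the 38 in the Col-0 background and 97.1% of the 35 in the lon2-8 background; over all tested genes, those lower in both were 62.0% and 68.5% of those lower in each. Across the 46 genes, which share libraries and are not independent, the log2 differences of the 2 comparisons correlated at r = 0.51.

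PSAN stood at 387, 378 and 412 FPKM (lon2-8) and 251, 255 and 264 FPKM (double mutant), a log2 difference of -0.61 ± 0.041 (adjusted p = 6.16e-08). PSBQ2 fell from 221, 227 and 242 to 162, 165 and 168 FPKM (-0.48 ± 0.034), and LHCB3 from 537, 527 and 548 to 378, 382 and 389 (-0.49 ± 0.036). For these 3 genes the groups lay apart. Between atg2-4 and Col-0 the log2 differences of PSAN, PSBQ2 and LHCB3 were -0.63, -0.48 and -0.48. LHCB4.3 fell from its raised level to 8.04, 7.44 and 7.13 FPKM (-0.97 ± 0.088, adjusted p = 1.07e-06). The 4 that rose were LHCB1.4, LHCB1.5 (AT2G34420), PSBR and RBCS2B, by 0.16, 0.11, 0.12 and 0.10, and without library 3 of the double mutant or library 1 or 2 of lon2-8 the count was 1.

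**Figure D3:**
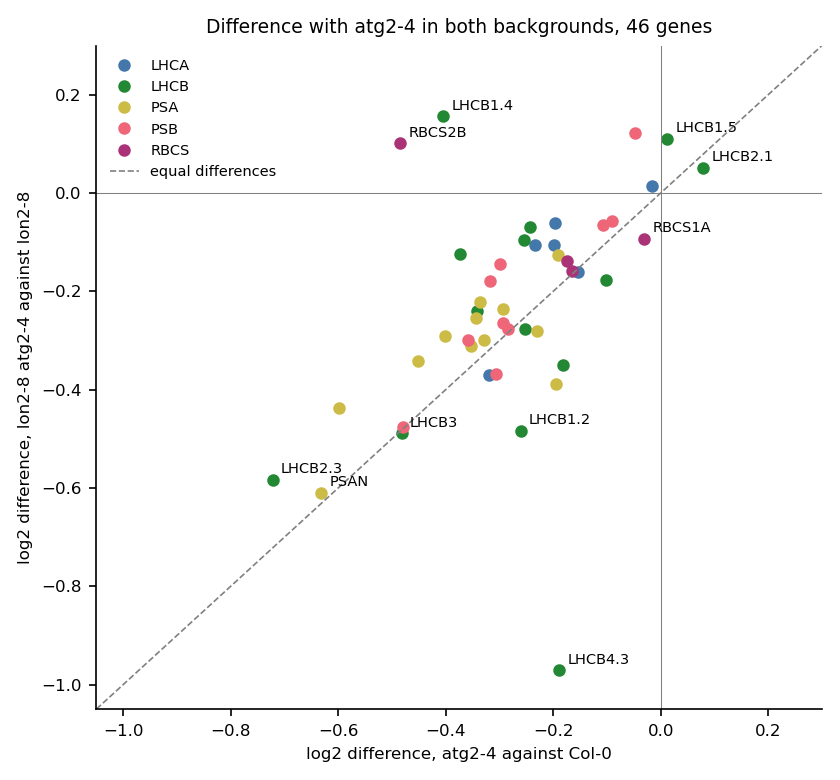
Log2 difference of each of the 46 genes between atg2-4 and Col-0 (horizontal) and between the double mutant and lon2-8 (vertical), both on the log2(FPKM + 1) scale and from separate libraries; the dashed line marks equal differences. Most genes lie below 0 on both axes near the line, LHCB4.3 lies far below it at -0.97 on the vertical axis, and LHCB1.4 and RBCS2B lie above it with falls on the horizontal axis of -0.40 and -0.48 and rises of 0.16 and 0.10 on the vertical axis.

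Between the double mutant and atg2-4, few of the genes were called: 3 fell and 5 rose, 6.52% and 10.9% of the 46, where 4.44% of all tested genes were called lower and 4.44% higher, with a median log2 difference of 0.05 against -0.02 over all tested genes. LHCB1.1 (-0.24 ± 0.036, adjusted p = 0.00173), LHCB2.2 (-0.19 ± 0.034, adjusted p = 0.00390) and LHCB2.1 (-0.16 ± 0.038, adjusted p = 0.0210) fell. RBCS2B (0.24 ± 0.035, adjusted p = 0.00124), RBCS3B (0.23 ± 0.036, adjusted p = 0.00173), LHCB4.3 (0.38 ± 0.088, adjusted p = 0.0189), LHCA6 and LHCB1.4 rose. LHCB2.1 and LHCB2.2 were lower, and LHCA6, LHCB4.3 and RBCS3B higher, with lon2-8 in both backgrounds, 4.35% and 6.52% of the 46, where 1.31% of all tested genes were lower and 1.75% higher in both. Of these calls only those of RBCS3B were kept in both backgrounds under each alternative that gave a value. Between the double mutant and atg2-4, LHCA6 lost its call under 14 alternatives, LHCB1.4 under 13, LHCB2.1 under 7 and LHCB4.3 under 4. Between lon2-8 and Col-0, LHCB2.1 and LHCB2.2 lost theirs under 6 each. The 5 that rose became 2 without library 3 of atg2-4 or library 2 of the double mutant, and 3 without library 2 or 3 of Col-0, library 1 of atg2-4 or of lon2-8, or library 1 or 3 of the double mutant.

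The interaction, defined as the effect of lon2-8 beside atg2-4 minus its effect in the wild type, was called for 9 of the 46 genes. There were 4 below 0 and 5 above, 8.70% and 10.9% of the 46, where 6.08% of all tested genes were called below and 7.1% above, with a median of 0.04 against 0.03 over all tested genes. Of the 9, the calls of RBCS2B, LHCB1.4, LHCB4.2 and LHCB4.3 were kept under each alternative that gave a value. On the TPM scale the split was 2 below and 8 above, and with centred medians 4 below and 3 above. The shares over all tested genes were not taken under these 2 settings. The count above 0 was 3 without library 2 or 3 of Col-0, 1 or 3 of atg2-4, 3 of the double mutant, or 1 or 2 of lon2-8, and 8 without library 2 of atg2-4 or 3 of lon2-8. The count below 0 was 1 without library 1 or 3 of Col-0, 2 of atg2-4, 1 of the double mutant or 3 of lon2-8, and 2 without library 2 of Col-0, 1 of atg2-4, 2 or 3 of the double mutant, or 1 or 2 of lon2-8.

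RBCS2B and LHCB1.4 shared a pattern in which each mutation alone went with a lower level and the double mutant stood nearer to Col-0. RBCS2B stood at 1837, 1881 and 1976 FPKM in the double mutant, above all libraries of either single mutant and below all of Col-0, with an interaction of 0.59 ± 0.049 (adjusted p = 9.15e-06). LHCB1.4 stood at 931, 960 and 910 FPKM in atg2-4 and at 998, 1023 and 1048 in the double mutant, again above both single mutants and below Col-0, with an interaction of 0.56 ± 0.052 (adjusted p = 1.98e-05). Its call as higher in the double mutant than in atg2-4 was lost under 13 alternatives. LHCB1.5, the gene next to LHCB1.4 on chromosome 2, did not share the pattern: it stood at 3140, 3118 and 3161 FPKM (Col-0), 3150, 3248 and 3103 (atg2-4), 2875, 2897 and 3076 (lon2-8) and 3145, 3145 and 3258 (double mutant) (interaction 0.10 ± 0.047, adjusted p = 0.199). RBCS1B, the next gene to RBCS2B on chromosome 5, had an interaction of 0.01 ± 0.046 (adjusted p = 0.948).

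For LHCB4.3 the interaction was -0.78 ± 0.125 (adjusted p = 0.00122): its lon2-8 level was raised in the Col-0 background by 1.16 and in the atg2-4 background by 0.38 on the log2 scale. LHCB4.2, its paralog, had an interaction of 0.25 ± 0.043 (adjusted p = 0.00217), with 471, 490 and 491 FPKM (Col-0), 369, 382 and 369 (atg2-4), 427, 431 and 447 (lon2-8) and 395, 393 and 409 (double mutant). The Col-0 libraries of LHCB4.2 lay highest and the atg2-4 libraries lowest. LHCB1.2 (AT1G29910) at -0.22 ± 0.065 and PSAE2 at -0.19 ± 0.058 were called with adjusted p of 0.0385 and 0.0427, and lost the call under 9 and 13 alternatives.

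**Figure D4:**
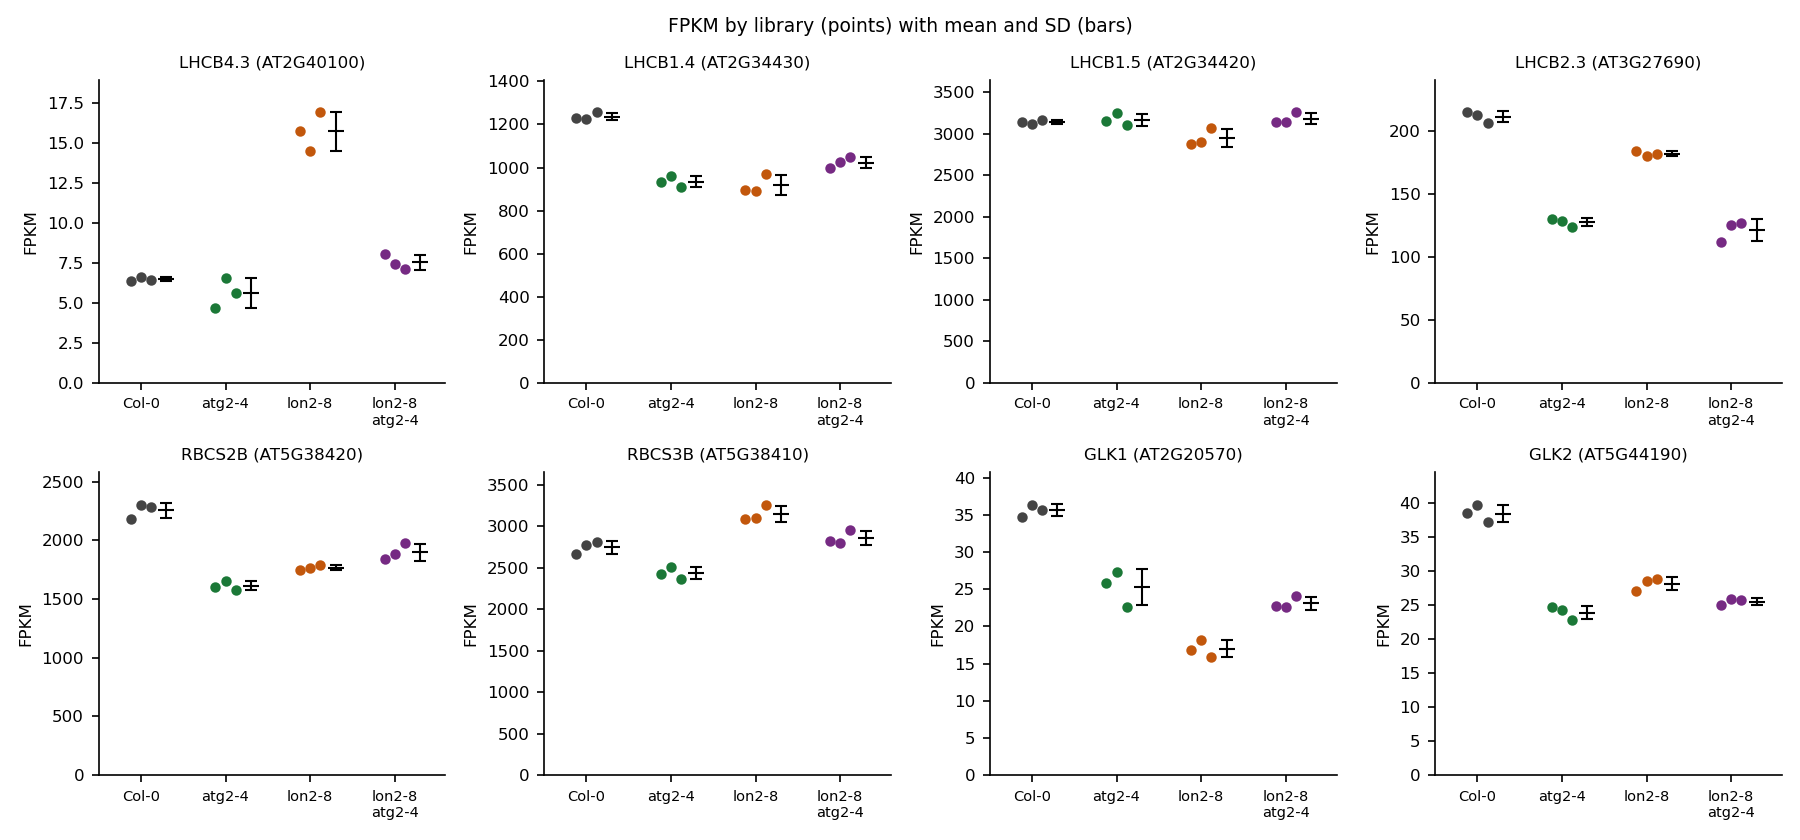
FPKM by library (points, 3 per genotype) with mean and SD (bars) for 4 LHCB genes, 2 RBCS genes and the regulators GLK1 and GLK2; each vertical axis starts at 0. LHCB4.3 is highest in lon2-8 (14.5 to 16.9 FPKM), LHCB1.4 and RBCS2B are highest in Col-0 and lowest in the single mutants, LHCB1.5 stays between 2875 and 3258 FPKM, and GLK1 is lowest in lon2-8 (15.9 to 18.2 FPKM).

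Several of these genes are near-identical copies, and reads shared between them could be split in ways not given in the sources used here, so differences between LHCB1, LHCB2 or RBCS copies are less certain than those of single-copy genes. With the copies summed, the 5 LHCB1 genes were lower than in Col-0 by log2 differences of -0.19 ± 0.037 (atg2-4), -0.18 ± 0.037 (lon2-8) and -0.25 ± 0.037 (double mutant) (adjusted p = 0.000747, 0.00423 and 8.79e-05). The 3 LHCB2 genes summed to -0.12, -0.14 and -0.28, all called lower. The copies RBCS1B, RBCS2B and RBCS3B, which lie close together on chromosome 5, summed to -0.29 ± 0.036 in atg2-4 (adjusted p = 1.97e-05), and their sum was not called in lon2-8 (-0.02 ± 0.036) or in the double mutant (-0.08 ± 0.036). The interaction of the RBCS sum was 0.24 ± 0.051 (adjusted p = 0.00824), and that of the LHCB1 sum was not called at 0.12 ± 0.052 (adjusted p = 0.157).

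The shares of single copies in these sums are given as a description. LHCB2.3 gave 19.5 ± 0.795% of the LHCB2 sum (Col-0), 12.8 ± 0.625% (atg2-4), 18.5 ± 0.375% (lon2-8) and 13.6 ± 0.725% (double mutant). LHCB2.1 gave 42.0 ± 0.839% of it in Col-0 and 48.2 ± 0.584% in atg2-4. RBCS2B gave 17.8 ± 0.242% of the Rubisco small subunit sum (Col-0), 14.0 ± 0.174% (atg2-4), 13.3 ± 0.266% (lon2-8) and 15.1 ± 0.177% (double mutant), and RBCS1A gave 56.6 ± 0.408% in Col-0 and 61.0 ± 0.308% in atg2-4. These shares were not tested.

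Genes that act beside the 46 were taken from lists of the same pathway. Their counts are read against all tested genes, of which 27.2% were called lower and 21.3% higher in atg2-4, 14.1% and 9.06% in lon2-8, and 30.1% and 22% between Col-0 and the double mutant. Of 11 genes for electron carriers, the chloroplast ATP synthase and photoprotection, 9 fell and 0 rose in atg2-4, 1 fell and 4 rose in lon2-8, and 7 fell and 1 rose between Col-0 and the double mutant. The falls were 81.8%, 9.09% and 63.6% of the list, and the rises in lon2-8 36.4% and in the last comparison 9.09%. FD2 (AT1G60950), the main leaf ferredoxin and the electron acceptor of photosystem I, stood at 730, 730 and 742 FPKM (Col-0), 435, 459 and 434 (atg2-4), 847, 856 and 882 (lon2-8) and 469, 471 and 495 (double mutant). Its log2 differences from Col-0 were -0.73 ± 0.032, 0.23 ± 0.032 and -0.62 ± 0.032, with adjusted p of 9.97e-10, 0.000212 and 4.57e-09. ATPD (AT4G09650), a subunit of the ATP synthase, fell by 0.44 in atg2-4 and by 0.46 in the double mutant. PETE1 (AT1G76100), a plastocyanin, fell by 0.42, by 0.19 and by 0.29 in atg2-4, lon2-8 and the double mutant. PETC (AT4G03280), the Rieske protein, and PSBS (AT1G44575), which acts in the release of excess energy as heat, rose in lon2-8 by 0.20 and 0.24.

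Of 12 Calvin cycle genes, all 12 fell in atg2-4, 1 fell and 4 rose in lon2-8, and 5 fell and 2 rose between Col-0 and the double mutant, the last 41.7% and 16.7% of the list. In lon2-8 the fall was 8.33% and the rises 33.3% of the list. Between the double mutant and atg2-4, 8 of these 12 rose, 66.7% against 4.44% of all tested genes, and 0 fell by limma (0 lower also at an unadjusted p under 0.05). SBPASE (AT3G55800), which acts in the regeneration of the carbon dioxide acceptor, stood at 249, 255 and 261 FPKM (Col-0), 192, 184 and 187 (atg2-4), 271, 273 and 266 (lon2-8) and 209, 218 and 220 (double mutant). Its difference from Col-0 was -0.44 ± 0.030 for atg2-4 (adjusted p = 7.88e-08) and -0.24 ± 0.030 for the double mutant (adjusted p = 2.05e-05). CP12-2 (AT3G62410), a regulatory protein of the cycle, and RCA (AT2G39730), Rubisco activase, had interactions of 0.31 ± 0.047 (adjusted p = 0.000844) and 0.22 ± 0.044 (adjusted p = 0.00542).

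Of 6 genes for the import and assembly of light-harvesting proteins, 2 fell in atg2-4, 1 fell and 1 rose in lon2-8, and 1 fell and 2 rose between Col-0 and the double mutant. The 2 falls in atg2-4 are 33.3% of the list, and a single gene is 16.7% of it. The lon2-8 calls were those of CAO, which makes chlorophyll b, and CPFTSY, the receptor of the signal recognition particle, and they were lost under 9 and 6 alternatives. CPSRP54 (AT5G03940), a part of the chloroplast signal recognition particle, fell by 0.39 in atg2-4 and by 0.23 in the double mutant. STN8 (AT5G01920), a kinase of photosystem II proteins, rose by 0.20 in the double mutant.

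Of 16 regulators of photosynthesis genes, 10 fell and 2 rose in atg2-4, 8 fell and 1 rose in lon2-8, and 11 fell and 2 rose between Col-0 and the double mutant. The falls were 62.5%, 50.0% and 68.8% of the list, above the shares over all tested genes, and the rises 12.5%, 6.25% and 12.5%, below them. GLK1 (AT2G20570) and GLK2 (AT5G44190) are transcription factors that activate antenna genes. GLK1 stood at 34.8, 36.4 and 35.7 FPKM (Col-0), 25.9, 27.3 and 22.6 (atg2-4), 16.8, 18.2 and 15.9 (lon2-8) and 22.7, 22.5 and 24.1 (double mutant). All mutant libraries lay below Col-0 and the lon2-8 libraries lowest, with log2 differences of -0.48 ± 0.064, -1.03 ± 0.064 and -0.60 ± 0.064 and an interaction of 0.91 ± 0.090 (adjusted p = 3.38e-05). In the same order GLK2 fell by 0.66, by 0.44 and by 0.57, with an interaction of 0.53 ± 0.058 (adjusted p = 6.97e-05). SIG1 (AT1G64860), a sigma factor of plastid transcription, fell by 0.82 in atg2-4 and by 0.84 in the double mutant and was at -0.06 in lon2-8, where it was not called. PIF3 (AT1G09530), a phytochrome-interacting factor, rose by 0.58 and by 0.75 in atg2-4 and the double mutant. PIF5 fell by 0.17, by 0.53 and by 0.44 in atg2-4, lon2-8 and the double mutant.

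The authors' deposited table, whose test is not stated, called 23 of the 46 genes lower and 1 higher in atg2-4 against Col-0 at a false discovery rate under 0.05, where it called 19.5% of its genes lower and 26.2% higher. Of the genes called lower by limma, LHCA2, LHCA3, LHCA4, LHCA5, LHCB1.1, LHCB1.2, LHCB1.3, LHCB2.2, LHCB4.1 and LHCB5 were not called there. The same held for PSAE2, PSAH1, PSAL, RBCS1B and RBCS3B. Directions were read from the sign of its log2 fold change, whose distance from 0 its false discovery rate did not follow. In atg2-4 the rate was highest for PSBX (0.511), at a log2 fold change of -0.11, and lower on both sides of that value. The cause was not tested. LHCB2.1 at 0.08 had a rate of 0.018 and LHCA2 at -0.23 had 0.137, so these counts and those of limma are not on the same scale. For lon2-8 the authors' deposited table called 4 lower and 12 higher, against 12.6% and 13.9% of its genes. The balance by limma without centring was the other way, with 12 lower and 6 higher. With the library medians centred, limma called 5 lower and 12 higher. For the double mutant against Col-0 the authors' deposited table called 20 lower and 3 higher, against 22.4% and 28.0% of its genes, and against atg2-4 it called 3 lower and 5 higher, against 5.00% and 5.82% of its genes.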

How the data were processed

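Poly-A selected RNA of 12 whole-seedling samples was sequenced in paired-end reads, per the labels' protocols. The submitters' processing notes name limma, edgeR, Salmon 0.8.2, featureCounts 1.4.6-p5, Subread, STAR 2.5.1a and bcl2fastq. Not given in the sources used here are what each was used for, whether strand was used, and the genome build. FPKM values by gene for each library are the authors' deposited measure. The authors also deposited, per the file headers, a log2 fold change and a false discovery rate (an adjusted p-value) for 4 comparisons, used here only for counts of calls at a threshold of 0.05. Library numbers follow the table columns, and 0 columns were left unassigned.

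Each value was a whole multiple of 1 fragment within 0.01 for 26093 of 26093 genes, which gave the depths; the tests used FPKM. The chi-square per gene between replicates was 1.59 to 2.73, where 1 is counting noise, so no library was a copy of another. It cannot show whether libraries came from the same RNA. A gene was tested where 3 or more libraries had 1 FPKM or more, which left 20662 genes, including the 46. The model was limma 3.58.1 (R 4.3.3) on log2(FPKM + 1) over 12 libraries and 4 group means with a trend, two-sided, adjusted by Benjamini-Hochberg over all genes tested. The fit was tested on simulated data. Python 3.11.15 made the tables and figures.

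Members and lists were chosen with earlier results of these data known. Genes were named by role and comparison: the most negative and most positive difference from Col-0, the most abundant gene, and up to 3 genes of smallest adjusted p per direction or list; other genes are given by range or briefly. Gene identifiers were matched to the RefSeq annotation of TAIR10.1 for names and neighbours (46 of 46). Alternatives were another pseudocount, no filter, centred medians, TPM, no trend, compared groups only, a replicate block, summed copies and each library left out. Where a library was left out, its group kept 2 libraries.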

Additional observations from a re-analysis of the deposited data

Results flagged for a closer look

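The effect of lon2-8 differed between the atg2-4 and Col-0 backgrounds, by limma's test of the interaction on the log2(FPKM + 1) scale, for 9 of the 46 genes. Those below 0 were 8.70% of the 46 and those above 10.9%, where 6.08% and 7.1% of all tested genes were called. The difference was -0.78 for LHCB4.3, -0.22 for LHCB1.2, -0.19 for PSAE2, -0.17 for LHCB1.1, 0.16 for LHCB5, 0.18 for LHCB1.3, 0.25 for LHCB4.2, 0.56 for LHCB1.4 and 0.59 for RBCS2B. LHCB4.3, LHCB4.2, LHCB1.4 and RBCS2B passed under each alternative processing that gave a value for them. LHCB1.1 lost its call under 15 alternatives, LHCB1.3 and PSAE2 under 13 each, LHCB5 under 11 and LHCB1.2 under 9.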

How the results depend on the processing

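No called difference of a named gene reversed its direction under any alternative that gave a value. LHCA5, not called between the double mutant and Col-0, changed sign from -0.02 to 0.0087 without library 1 of the double mutant and to 0.00039 without library 3 of Col-0. The 36 falls in the double mutant against Col-0 were kept in each alternative that gave a value, as were 36 of the 38 in atg2-4 and 29 of the 35 between the double mutant and lon2-8; the exceptions in atg2-4 were LHCA5 and LHCB2.2. In lon2-8, 5 of 12 falls and 4 of 6 rises were kept. For the named genes, 143 values lost the threshold, 10 gained it and 2324 stayed on their side. With centred medians, the median of the 46 genes was 0.013 in lon2-8 against Col-0 and -0.27 in the double mutant against lon2-8, lon2-8 had 12 rises and 5 falls, the double mutant had 1 rise against lon2-8, and the interaction had 3 genes above 0. On the TPM scale the interaction had 8 above and 2 below. Without the filter it had 3 above and 1 below, and the double mutant had 1 rise against lon2-8. Without the trend, the interaction had 3 above and 1 below, lon2-8 had 6 falls, and the double mutant had 3 rises against atg2-4 and 2 against lon2-8. With copies summed, the interaction had 3 above and 1 below, lon2-8 had 3 rises, and the double mutant had 3 rises and 1 fall against atg2-4 and 1 rise against lon2-8. With only the compared groups in the fit, the double mutant had 1 rise against Col-0 and 2 against atg2-4. The cause of these changes was not tested. Fewer genes are compared when copies are summed, and fewer samples when groups or libraries are left out. The shares over all tested genes given above were not taken under these alternatives.

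With each library left out in turn, the falls ranged from 36 to 42 in atg2-4, 6 to 13 in lon2-8, 36 to 36 in the double mutant against Col-0, 2 to 3 against atg2-4 and 29 to 36 against lon2-8, and 1 to 3 in the interaction. The rises ranged from 0 to 1, 4 to 7, 0 to 1, 2 to 7, 1 to 4 and 3 to 8 in the same order. The medians ranged from -0.29 to -0.25, -0.06 to -0.02, -0.25 to -0.22, 0.03 to 0.07, -0.25 to -0.20 and 0.024 to 0.084.

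Samples of the same replicate number did not deviate together (r = -0.06 to 0.05), so the tests did not pair them. These correlations cannot show whether such samples were grown or prepared together. With a replicate block, the falls were 38 in atg2-4, 11 in lon2-8, 36 in the double mutant against Col-0, 3 against atg2-4 and 34 against lon2-8 and 3 in the interaction, and the rises 0, 7, 0, 4, 4 and 4. Precision is limited by 3 libraries a group. LHCB4.3 rests on the fewest fragments, 141 in its lowest library.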
